A study of Mus musculus with 8 samples.

Results

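The genes described here are 35 genes of glucose breakdown and of the response to low oxygen, out of 55487 genes counted in mouse pro-B cells. They were taken by symbol: 2 glucose transporters, 2 hexokinases, 7 enzymes or enzyme subunits of upper glycolysis, 6 of lower glycolysis, 4 lactate dehydrogenase and monocarboxylate transporter genes, 3 regulators of glycolytic flux, 7 genes of oxygen sensing and 4 further targets of the hypoxia response. Of the 35 genes, 34 passed the filter on low counts and entered the test. The exception was Eno2, which encodes the enolase typical of neurons and had 0 to 9 counts in a library.

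The study compared mouse pro-B cells with and without CD25, the subunit of the interleukin-2 receptor that Il2ra encodes. RNA was sequenced from 4 libraries of genotype WT and 4 of genotype CD25_KO, called wild type and labelled knockout below. The labels give no strain, age, sex, tissue or design of the allele, and they do not state whether each library is a different animal, so every p-value measures only the spread between these libraries, which may be technical.

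Glycolysis splits glucose into pyruvate in the cytosol, and pyruvate either enters mitochondria or is reduced to lactate, which is exported. In the presence of oxygen, prolyl hydroxylases of the EGLN family mark the transcription factor subunit HIF-1 alpha (Hif1a) for destruction by the von Hippel-Lindau protein (Vhl). When oxygen is low, HIF-1 alpha pairs with its partner ARNT and induces many glycolytic genes. Control of HIF-1 alpha by oxygen acts mostly on the protein, which RNA counts do not measure. Early B cells divide rapidly between steps of antigen receptor gene rearrangement, and glucose uptake and HIF-1 alpha activity are known to change across these stages.

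The libraries held 43974037 to 57988772 counts, of which the 35 genes took 0.379% to 0.406%. Il2ra did not separate the groups, with means over 4 libraries of 193 ± 35.9 CPM (SD) for wild type and 181 ± 43.1 CPM (SD) for labelled knockout, where CPM is a count scaled to library size, and a log2 fold change of -0.09 ± 0.19 (SE). The counts cover all exons of Il2ra and the deleted part is not stated, so this level does not check the labels. Summed B lineage markers lay between 7639 and 9327 CPM in every library. Of these 7 genes, 4 had a positive and 3 a negative log2 fold change, labelled knockout over wild type. At an unadjusted p under 0.05 (edgeR), Ebf1 was higher (0.40 ± 0.13), and Vpreb1 (-0.86 ± 0.38) and Igll1 (-0.91 ± 0.40) were lower. Among all genes tested, 5.53% were higher and 7.11% lower at that level. The sum of 7 pro-B and progenitor markers lay between 1107 and 1557 CPM, with overlapping groups. All 7 genes of this list had a negative fold change, with a median of -0.33, and Erg alone reached that level of p. Levels within that list were uneven. Kit, a defining marker of pro-B cells, was lowest at 0.701 to 3.20 CPM, Erg lay at 3.59 to 9.19 CPM, and Il7r was highest at 498 to 592 CPM. The sum of 6 markers of later B cell stages lay between 1098 and 1484 CPM, with overlapping groups and with Ms4a1 at 596 to 838 CPM. Pro-B is the name given by the labels, and the stage of the cells was not tested. Among markers of other cells, the erythroid and the natural killer sums separated the groups, and the sums of the other lists overlapped. The summed level of 12 erythroid genes, none of them at 0 in all libraries, was 3389 to 9018 CPM in wild type and 560 to 2635 CPM in labelled knockout. That of 9 natural killer and innate lymphoid genes, again none at 0 in all libraries, was 30.9 to 42.8 CPM in wild type and 8.24 to 28.3 CPM in labelled knockout. Of the 8 tested genes of that list, 7 had a negative and 1 a positive fold change, and 1 separated the groups by itself. The sum of 12 genes of G2 and mitosis, a list added after the data were seen, was 2822 to 3279 CPM in wild type and 1187 to 2751 CPM in labelled knockout, with labelled knockout 1 at 1725 CPM and labelled knockout 3 at 1187 CPM. Y-linked genes were expressed in wild type 2 and labelled knockout 2 and 4, and wild type 2 also had Xist at 60.0 CPM. In bulk RNA, fewer cells of a type and less RNA per cell cannot be told apart.

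No gene of the set passed an adjusted p of 0.05 between labelled knockout and wild type (edgeR quasi-likelihood test, two-sided, Benjamini-Hochberg over 18884 genes), and neither did any other gene tested, 0% of all. The smallest adjusted p was 0.391, while 2388 genes had an unadjusted p under 0.05. Fold changes below are labelled knockout over wild type on the log2 scale, with the SE, and over all 8 libraries the adjusted p of each named gene is at least 0.391. At an unadjusted p under 0.05, 3 of the 34 tested genes were higher in labelled knockout (8.82%; 5.53% of all genes tested), namely Pgam1, Egln2 and Egln3. As many were lower (8.82%; 7.11% of all genes tested), namely Tpi1, Pgk1 and Ldha. All 4 labelled knockout libraries lay above all 4 wild type libraries for Pkm, Egln2 and Egln3 (3 of 34, 8.82%; 2.62% of all genes tested), and below them for Tpi1, Gapdh, Pgk1 and Ldha (4 of 34, 11.8%; 4.17% of all genes tested). Fitted fold changes were positive for 21 genes and negative for 13, with a median of 0.06 beside 0.0033 for all genes, and upper quartile scaling turned the sign of 6 of the 21. The 95% interval lay within a 2-fold change in either direction for 26 of the 34 genes (76.5%), beside 58.4% of all genes tested, which were not matched on level.

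**Figure D1:**
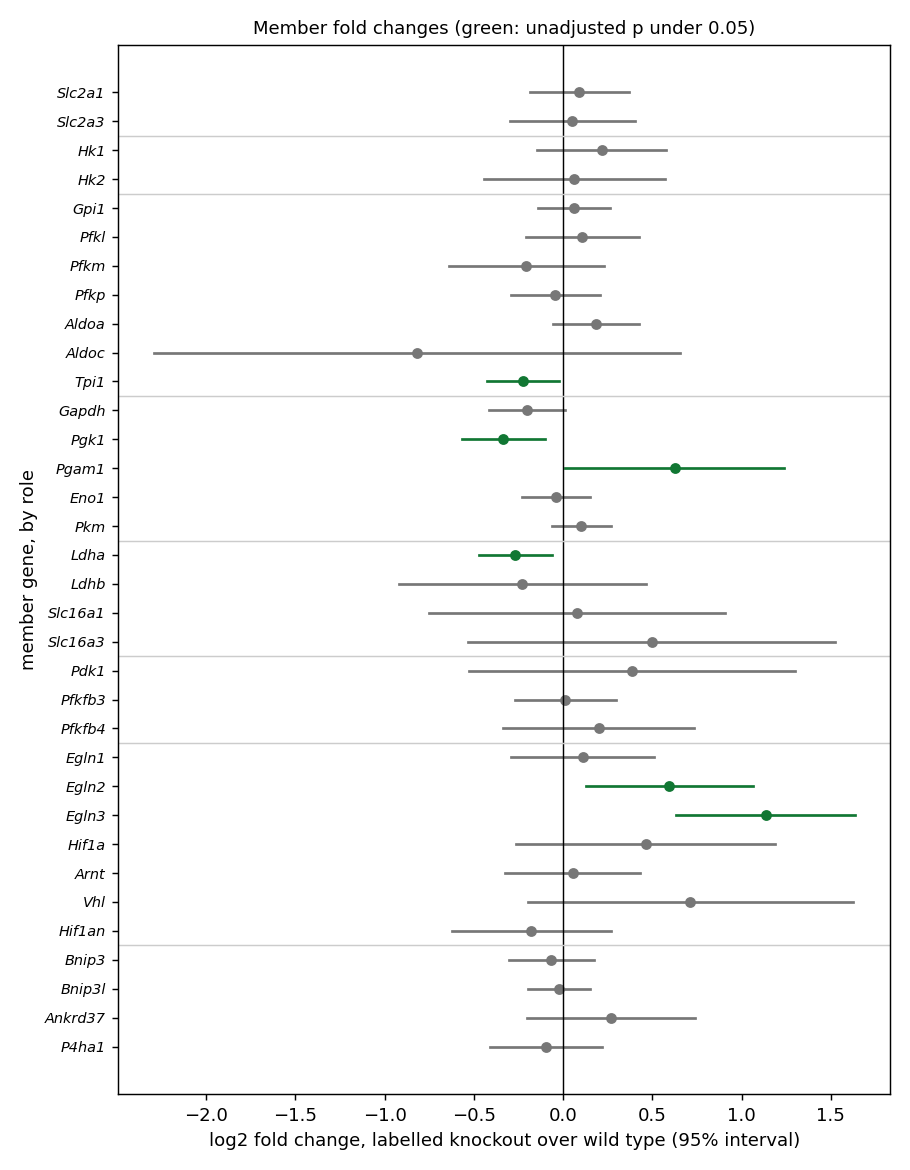
Log2 fold change of each of the 34 tested genes, labelled knockout over wild type, with its 95% interval (horizontal axis) and the genes ordered by role (vertical axis). Green marks an unadjusted p under 0.05, reached by 3 genes on each side, and the intervals of the oxygen sensing genes Hif1a and Vhl are wide beside those of Gpi1 or Eno1.

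Promoters of 4 of the 6 genes with an unadjusted p under 0.05 are shown, as examples from both sides of the comparison, to display the core letters of the element that HIF-1 recognises. The core is ACGTG on either strand, so it appears as ACGTG or as CACGT in the strand printed, and the palindrome CACGTG holds it on both strands and counts as 2 matches. In RefSeq promoter windows of GRCm38.p6, from 250 bases before to 50 bases after a transcript start, 33 of the 35 genes were matched, and 21 of the 33 (63.6%) had the core in at least 1 window, beside 21.8% of all 27025 genes. CACGTG, which overlaps the core and is also the E-box read by MYC and USF factors, was in 7 of 33 (21.2%) beside 8.09% of the genes compared. The windows of the 33 genes were richer in GC, with a median of 62.3% beside 52.7%. Below are the 250 bases before the start, 5′ to 3′ along the gene's strand, with capitals marking the core or the palindrome, for Ldha (chr7:46845554-46845803, plus strand), Pgk1 (chrX:106186850-106187099, plus strand), Egln3 (chr12:54203875-54204124, minus strand) and Pgam1 (chr19:41911621-41911870, plus strand), using for Ldha the one of its windows that held a match.
Ldha: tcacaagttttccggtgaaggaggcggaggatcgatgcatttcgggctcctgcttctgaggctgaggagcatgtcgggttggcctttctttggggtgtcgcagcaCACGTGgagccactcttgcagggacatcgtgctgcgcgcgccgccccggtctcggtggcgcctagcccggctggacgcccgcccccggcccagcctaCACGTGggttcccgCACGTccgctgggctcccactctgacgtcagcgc
Pgk1: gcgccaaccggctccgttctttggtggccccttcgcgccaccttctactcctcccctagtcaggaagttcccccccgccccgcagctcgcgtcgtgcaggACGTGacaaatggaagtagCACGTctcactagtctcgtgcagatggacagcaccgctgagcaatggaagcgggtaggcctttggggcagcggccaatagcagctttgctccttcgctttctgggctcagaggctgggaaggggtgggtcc
Egln3: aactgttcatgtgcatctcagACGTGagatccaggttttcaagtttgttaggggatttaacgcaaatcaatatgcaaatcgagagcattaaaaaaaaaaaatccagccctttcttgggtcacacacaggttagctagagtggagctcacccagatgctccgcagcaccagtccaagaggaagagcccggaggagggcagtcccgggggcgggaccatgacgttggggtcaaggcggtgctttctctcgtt
Pgam1: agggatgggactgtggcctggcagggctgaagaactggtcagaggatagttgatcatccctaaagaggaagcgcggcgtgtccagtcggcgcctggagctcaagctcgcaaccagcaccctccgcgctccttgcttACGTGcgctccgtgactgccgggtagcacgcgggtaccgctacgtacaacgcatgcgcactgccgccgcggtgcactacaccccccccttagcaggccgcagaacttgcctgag
Ldha had 5 matches within these bases and Pgk1 had 2, while Egln3 and Pgam1 had 1 each. The core was present in promoters of genes on either side of the comparison. No window of Tpi1 held these letters, and 1 of the windows of Egln2 held 3 matches.

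Glucose enters through facilitative transporters, of which Slc2a1 (GLUT1) supplied 79.9% ± 2.67 (SD, n = 8) of the transcripts of the pair once reads were divided by exon length (RPKM, the CPM per kilobase of exon). Slc2a1 was at 24.7, 25.2, 27.2 and 21.4 CPM in wild type 1 to 4 and at 29.5, 25.2, 26.0 and 24.2 CPM in labelled knockout 1 to 4. The groups overlapped, and the log2 fold change was 0.09 ± 0.12. Slc2a3 (GLUT3) lay between 9.86 and 15.02 CPM in all libraries, with a log2 fold change of 0.05 ± 0.16. Hexokinases trap glucose by phosphorylation, and Hk1 supplied 93.2% ± 0.717 (SD, n = 8) of the hexokinase transcripts of this set. Hk1 was at 39.4, 26.6, 35.4 and 28.1 CPM in wild type and 42.0, 35.1, 42.1 and 31.4 CPM in labelled knockout. Its groups overlapped, with wild type 2 lowest and a log2 fold change of 0.22 ± 0.16. Hk2, the hexokinase that hypoxia and MYC induce in many tissues, lay between 1.31 and 2.14 CPM, with a log2 fold change of 0.06 ± 0.23.

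In upper glycolysis, Tpi1 (ENSMUSG00000023456.16, chr6:124810586-124814296), which interconverts the triose phosphates, had the lowest unadjusted p. Tpi1 was at 186, 207, 198 and 193 CPM in wild type 1 to 4 and at 172, 179, 146 and 174 CPM in labelled knockout 1 to 4. All labelled knockout libraries lay below all wild type libraries, with labelled knockout 3 lowest. The log2 fold change of Tpi1 was -0.22 ± 0.09 (unadjusted p = 0.0346, adjusted p = 0.391, edgeR). Phosphofructokinase, the main control point of the pathway, is built from 3 kinds of subunit, and their transcripts were shared as 54.8% Pfkl, 34.8% Pfkp and 10.5% Pfkm of the summed RPKM. By reads not divided by exon length Pfkp led instead, with 53.7% of the summed CPM. Pfkl was at 55.7, 45.4, 62.1 and 53.6 CPM in wild type and 59.5, 49.6, 70.8 and 53.7 CPM in labelled knockout, with overlapping groups and a log2 fold change of 0.11 ± 0.14. The other two subunits lay at -0.20 ± 0.19 (Pfkm) and -0.04 ± 0.11 (Pfkp) on the log2 scale. Aldoa, the aldolase of muscle and most proliferating cells, made up 99.8% of the summed RPKM of Aldoa and Aldoc. It was at 207, 224, 221 and 190 CPM in wild type and 264, 215, 266 and 211 CPM in labelled knockout. Labelled knockout 1 and 3 lay above every wild type library and labelled knockout 2 and 4 did not, which left a log2 fold change of 0.18 ± 0.11. Gpi1, which isomerises glucose 6-phosphate, lay between 153 and 188 CPM, with a log2 fold change of 0.06 ± 0.09. Aldoc, the brain aldolase, was under 0.8 CPM throughout and had 2 to 35 counts in a library.

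In lower glycolysis, Pgk1 (ENSMUSG00000062070.12, chrX:106187100-106203699), the first enzyme of the pathway to yield ATP and an X-linked gene, was lower in every labelled knockout library. Pgk1 was at 157, 179, 178 and 185 CPM in wild type 1 to 4 and at 129, 152, 122 and 152 CPM in labelled knockout 1 to 4. The groups did not overlap, and labelled knockout 1 and 3 were lowest. Pgk1 had a log2 fold change of -0.33 ± 0.10 (unadjusted p = 0.00966, adjusted p = 0.391, edgeR). Gapdh (ENSMUSG00000057666.18, chr6:125161715-125166467), which acts one step earlier, was at 553, 582, 583 and 593 CPM in wild type and 516, 546, 423 and 525 CPM in labelled knockout. Its groups did not overlap either, with labelled knockout 3 standing lowest. Gapdh had a log2 fold change of -0.20 ± 0.09 (unadjusted p = 0.0596, adjusted p = 0.402, edgeR).

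Pgam1 (ENSMUSG00000011752.7, chr19:41911923-41918660), the phosphoglycerate mutase that follows Pgk1 in the pathway, lay on the other side. Pgam1 was at 116, 63.2, 119 and 196 CPM in wild type 1 to 4 and at 209, 169, 197 and 187 CPM in labelled knockout 1 to 4. Labelled knockout was narrow, at 190.4 ± 17.2 CPM (SD, n = 4), and wild type was wide, at 123 ± 54.6 CPM (SD, n = 4), with wild type 4 inside the labelled knockout range and wild type 2 lowest. The log2 fold change was 0.63 ± 0.27 (unadjusted p = 0.0461, adjusted p = 0.391, edgeR), with 0.44 ± 0.20 without wild type 2 (adjusted p = 0.697) and 0.94 ± 0.20 without wild type 4 (adjusted p = 0.0501). Eno1, the enolase of most tissues, lay at 98.6 RPKM over all libraries, with Eno2 near 0. Eno1b, an enolase gene outside the set, lay at 82.0 RPKM and at 141 to 175 CPM. Any fragment that maps to both Eno1 and Eno1b was counted for each. How much of the Eno1b level such fragments make up was not tested. Eno1 was at 510, 538, 594 and 506 CPM in wild type and 506, 495, 554 and 537 CPM in labelled knockout. Its groups overlapped, and the log2 fold change was -0.04 ± 0.09, with a 95% interval from -0.23 to 0.15. Pkm (ENSMUSG00000032294.17, chr9:59656368-59679375), pyruvate kinase, was at 381, 348, 370 and 375 CPM in wild type and 410, 388, 381 and 405 CPM in labelled knockout. Labelled knockout 3 exceeded wild type 1 by less than 1 CPM, the groups otherwise stood apart, and the log2 fold change was 0.10 ± 0.07 (unadjusted p = 0.199, adjusted p = 0.557, edgeR). With the trend of each library on GC content removed, the log2 fold change of Pkm was -0.10 ± 0.11.

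**Figure D2:**
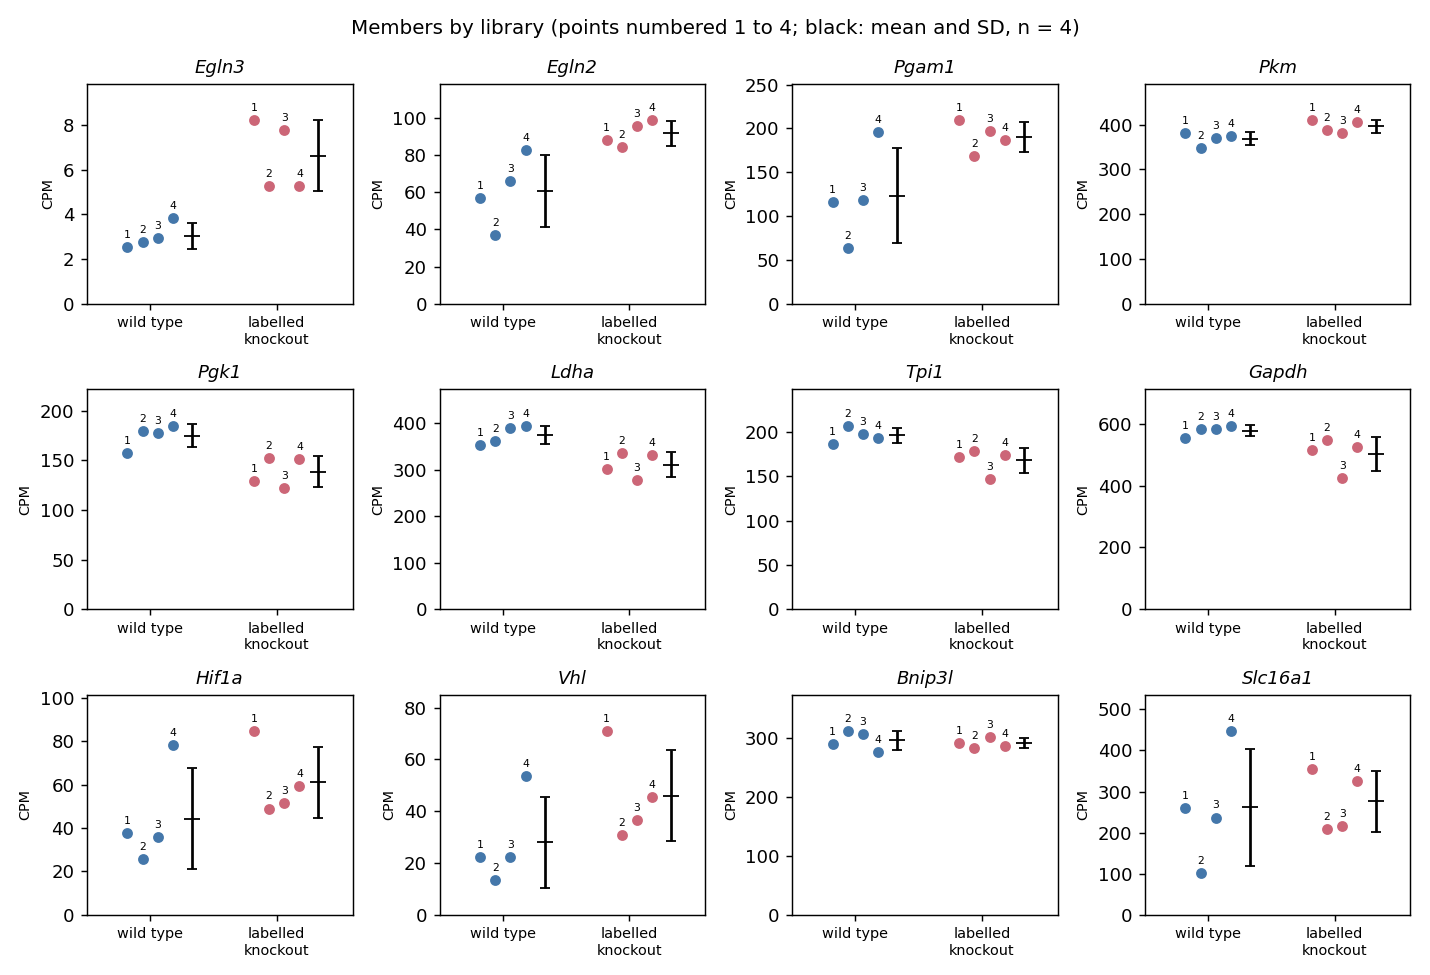
CPM of 12 genes in each library, numbered 1 to 4 within wild type (blue) and labelled knockout (red), with mean and SD in black (vertical axes start at 0). Pgk1, Ldha, Tpi1 and Gapdh lie lower in every labelled knockout library, Egln3 and Egln2 lie higher, and wild type 2 and wild type 4 stretch the wild type group of Pgam1, Hif1a, Vhl and Slc16a1.

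Ldha (ENSMUSG00000063229.15, chr7:46841475-46855627), the lactate dehydrogenase subunit that favours lactate formation, made up 99.5% ± 0.127 (SD, n = 8) of the summed RPKM of Ldha and Ldhb. It was at 354, 361, 390 and 395 CPM in wild type 1 to 4 and at 302, 336, 277 and 331 CPM in labelled knockout 1 to 4. The groups did not overlap, and labelled knockout 3 and 1 were again lowest. Ldha had a log2 fold change of -0.27 ± 0.09 (unadjusted p = 0.0150, adjusted p = 0.391, edgeR). Ldhb lay between 0.599 and 1.30 CPM. Lactate leaves the cell through monocarboxylate transporters, and Slc16a1 (MCT1) made up 99.8% of the pair. Slc16a1 was at 259.8, 102, 237 and 447 CPM in wild type and at 354, 209, 215 and 325 CPM in labelled knockout. Wild type held both the lowest and the highest library, and the log2 fold change was 0.08 ± 0.37. Slc16a3 (MCT4), the exporter that hypoxia induces in many cells, lay between 0.351 and 1.28 CPM.

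Tpi1, Gapdh, Pgk1 and Ldha were each lowest in labelled knockout 3 and next lowest in labelled knockout 1, the libraries with the lowest sums of G2 and mitosis genes, of erythroid genes and of natural killer genes. With both libraries left out, the log2 fold changes were -0.17 ± 0.11 for Tpi1, -0.13 ± 0.10 for Gapdh, -0.22 ± 0.12 for Pgk1 and -0.19 ± 0.10 for Ldha, and none of the 34 genes was lower at an unadjusted p under 0.05 (edgeR; 284 of 21034 genes, 1.35%, were). Both libraries were chosen after the values were seen, as the lowest for these genes. Smaller differences without them follow from that choice, so this fit cannot show what part they had. Their part in the differences was not tested. These counts also carry an uncertainty of counting, since every alignment of a fragment that maps to several places was counted. Annotated pseudogenes with at least 90% identity to the Gapdh transcript over 200 bases numbered 197 and held 146% to 160% of its counts. For Pgk1 4 such pseudogenes held 82.7% to 100% of its counts, for Pgam1 3 held 39.1% to 44.7% and for Eno1 7 held 24.9% to 29.1%. For Ldhb, which had 30 to 58 counts in a library, 1 such pseudogene held 145% to 441% of its counts. The shares were smaller for Ldha, at 1.21% to 2.08%, and for Tpi1, at 2.11% to 3.37%.

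Among the regulators of flux, Pfkfb3, a bifunctional enzyme that makes the activator of phosphofructokinase, supplied 90.3% ± 2.54 (SD, n = 8) of the transcripts of its pair. Pfkfb3 was at 49.3, 54.0, 55.7 and 54.8 CPM in wild type and 48.8, 49.5, 67.0 and 50.4 CPM in labelled knockout. The groups overlapped apart from a high labelled knockout 3, and the log2 fold change was 0.01 ± 0.13. Pfkfb4 lay between 2.87 and 5.28 CPM. Pdk1, the kinase that closes the entry of pyruvate into the citrate cycle, was at 5.20, 4.36, 5.33 and 13.2 CPM in wild type and 14.2, 4.82, 8.44 and 9.36 CPM in labelled knockout. Wild type 4 and labelled knockout 1 stood highest, so the groups overlapped, and the log2 fold change was 0.39 ± 0.41. Leaving out 1 library at a time, it ran from 0.09 ± 0.41 without labelled knockout 1 (adjusted p = 0.971) and 0.24 ± 0.43 without wild type 2 to 0.89 ± 0.31 without wild type 4 (adjusted p = 0.142, edgeR).

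**Figure D3:**
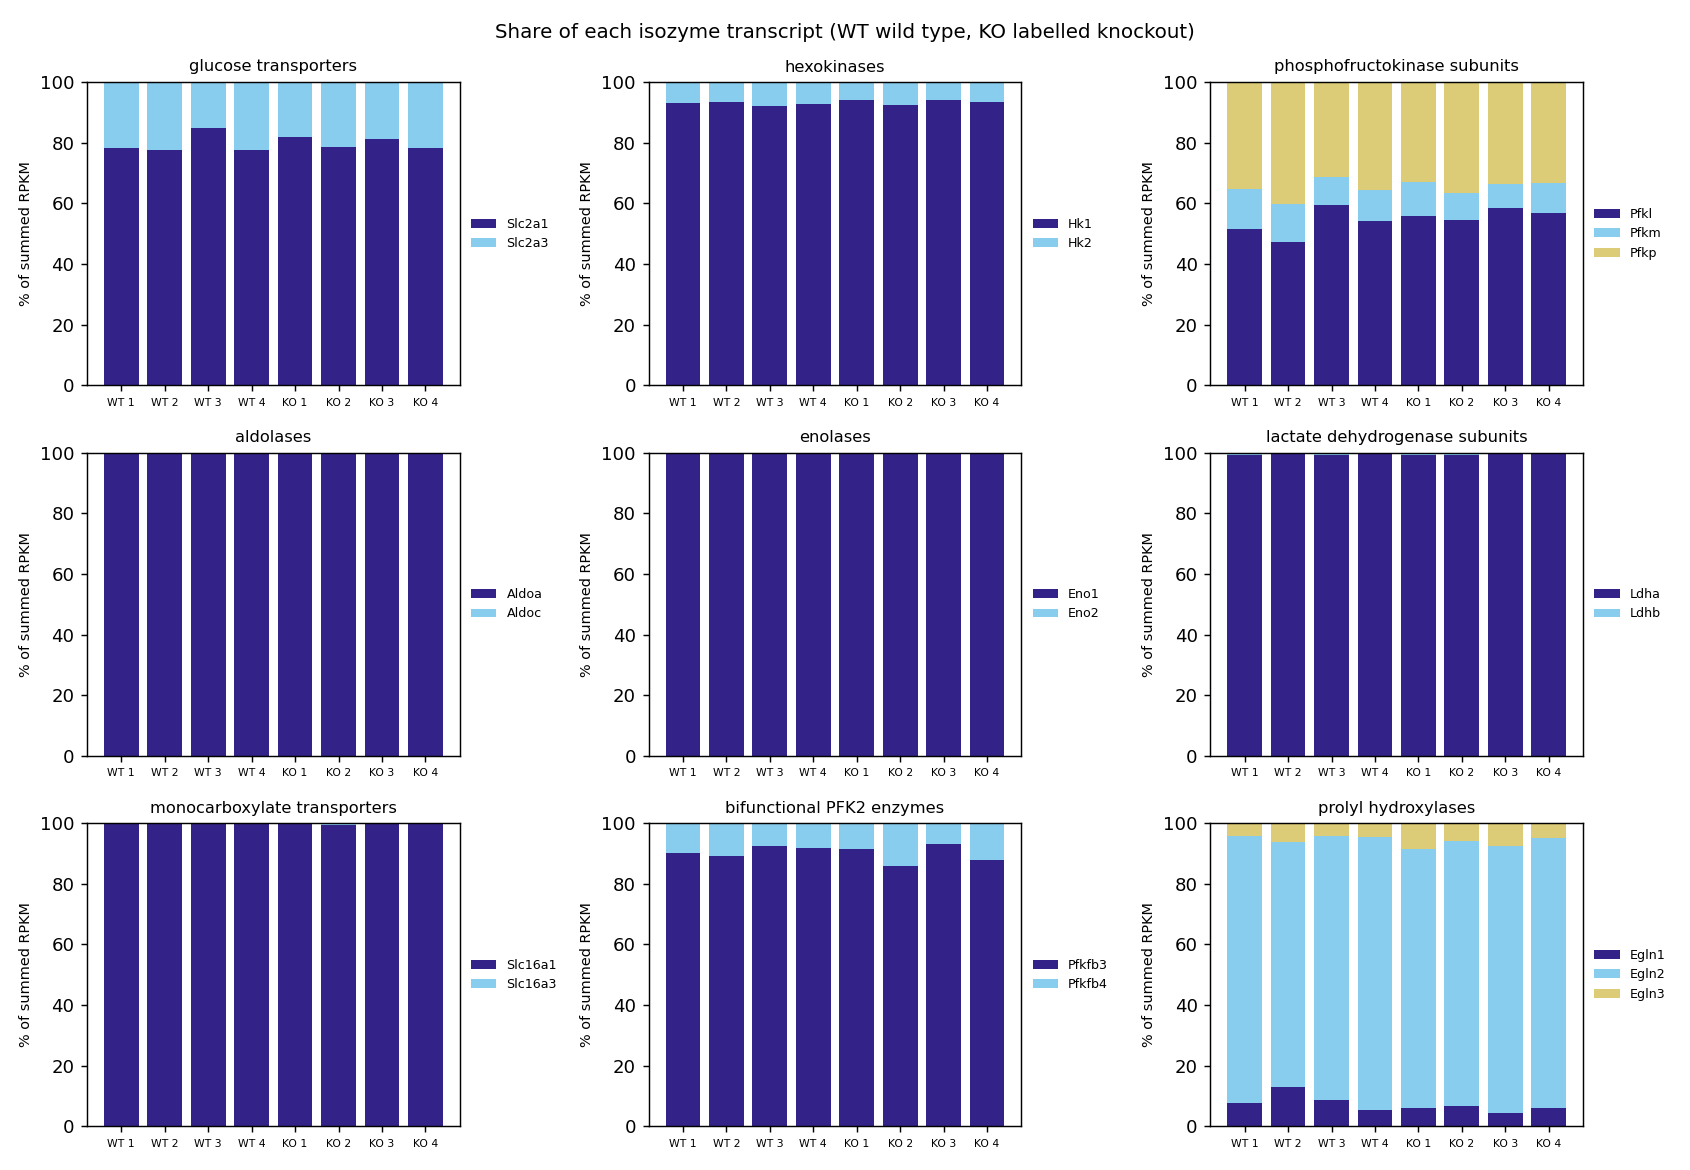
Share of each isozyme or subunit in the summed RPKM of the members of its family among the 35 genes (vertical axes, percent), for each of the 8 libraries (WT wild type, KO labelled knockout). Slc2a1, Hk1, Aldoa, Eno1, Ldha, Slc16a1, Pfkfb3 and Egln2 lead in every library among the members shown, and the phosphofructokinase subunits are more evenly split, with Pfkl at 47.3% to 59.4%.

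Oxygen sensing held the gene with the smallest unadjusted p of the set. Egln3 (ENSMUSG00000035105.5, chr12:54178981-54203860), the prolyl hydroxylase that is itself a target of HIF-1 in many cells, was at 2.53, 2.75, 2.92 and 3.86 CPM in wild type 1 to 4 and at 8.21, 5.26, 7.77 and 5.28 CPM in labelled knockout 1 to 4. Each labelled knockout library lay above each wild type library, with labelled knockout 1 and 3 highest. The log2 fold change was 1.13 ± 0.22 (95% interval 0.63 to 1.64), and its unadjusted p of 0.000551 ranked 3 among all genes tested (adjusted p = 0.391, edgeR). Without wild type 4 the log2 fold change of Egln3 was 1.28 ± 0.23 and passed the threshold (adjusted p = 0.0493, edgeR; 358 genes, 1.84% of those tested, then passed on the higher side). DESeq2 on the same 18884 genes and 8 libraries also called Egln3 (log2 fold change 1.14, adjusted p = 0.0288), as 1 of 3 genes on the higher side (0.0159%, with 0.0053% on the lower side), whereas DESeq2 on all genes with a count called none. Without labelled knockout 1 and 3, its highest libraries, the log2 fold change was 0.79 ± 0.24 (adjusted p = 0.995, edgeR). This pair was chosen after the values were seen, so a smaller value follows from the choice. Over all alternatives tried the adjusted p of Egln3 ran from 0.00372 to 0.995.

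Egln2 (ENSMUSG00000058709.11, chr7:27158658-27166802), the most abundant of the 3 prolyl hydroxylases with 87.1% ± 2.92 (SD, n = 8) of their summed RPKM, was at 56.8, 36.9, 66.0 and 82.9 CPM in wild type and 88.03, 84.5, 95.6 and 98.7 CPM in labelled knockout. The groups did not overlap, although wild type 4 lay within 2 CPM of labelled knockout 2. The log2 fold change was 0.60 ± 0.21 (unadjusted p = 0.0176, adjusted p = 0.391, edgeR), and with the GC trend removed it was 0.27 ± 0.13. Egln1, the main regulator of HIF-1 alpha in most tissues, was at 6.34, 7.65, 8.35 and 6.20 CPM in wild type and 7.71, 8.38, 5.97 and 8.72 CPM in labelled knockout. Its groups overlapped, and the log2 fold change was 0.11 ± 0.18. The shares of Egln1 and Egln3 in the summed RPKM of the family were 7.20% and 5.70%, and no share separated the groups.

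Hif1a was at 37.5, 25.6, 35.7 and 78.2 CPM in wild type 1 to 4 and at 84.6, 49.0, 51.5 and 59.2 CPM in labelled knockout 1 to 4. Of the wild type libraries 3 lay below all labelled knockout libraries, and wild type 4 lay above 3 of them. The log2 fold change was 0.46 ± 0.32 with all libraries, 0.26 ± 0.33 without labelled knockout 1 (adjusted p = 0.876), 0.30 ± 0.31 without wild type 2 (adjusted p = 0.820) and 0.89 ± 0.21 without wild type 4 (adjusted p = 0.0535, edgeR). Vhl, the substrate receptor of the ubiquitin ligase that removes HIF-1 alpha, had the same order of libraries except for wild type 1 and 3. It was at 22.4, 13.5, 22.4 and 53.7 CPM in wild type and 70.9, 31.0, 36.6 and 45.4 CPM in labelled knockout, with wild type 4 above 3 labelled knockout libraries. Its log2 fold change was 0.71 ± 0.41, with 0.42 ± 0.40 without labelled knockout 1 (adjusted p = 0.828) and 1.24 ± 0.29 without wild type 4 (adjusted p = 0.0522, edgeR). Arnt, the partner of HIF-1 alpha, was at 92.4, 103, 83.6 and 60.5 CPM in wild type and 72.0, 87.0, 102 and 90.8 CPM in labelled knockout, with wild type 4 lowest, overlapping groups and a log2 fold change of 0.05 ± 0.17. Hif1an, the asparaginyl hydroxylase that blocks transactivation by HIF-1 alpha, lay between 45.3 and 83.3 CPM, with a log2 fold change of -0.18 ± 0.20.

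The fits without wild type 4 each called some of the 34 genes (edgeR, adjusted p under 0.05). Without wild type 4, Egln3 alone of the 34 was called higher, and none was called lower (0.0256% of all genes tested). With a term for Y-linked expression as well, 6 genes were called higher, Pdk1, Vhl, Egln2, Egln3, Hif1a and Pgam1 (11.9% of all genes tested), and Pgk1 was called lower (4.04%). With the GC trend removed in its place, Vhl, Egln3, Hif1a and Pgam1 were called higher (6.06%) and none lower (0.456%). The same covariate and GC fits over all 8 libraries called none of the 34 genes.

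The 4 further hypoxia targets had overlapping groups. Bnip3 and Bnip3l encode mitophagy receptors of the outer mitochondrial membrane. Bnip3l lay between 276 and 311 CPM in all 8 libraries, a coefficient of variation of 4.13%, and its log2 fold change had a 95% interval from -0.20 to 0.15. An annotated pseudogene like Bnip3l held 28.6% to 31.6% of its counts. Bnip3 lay between 46.0 and 56.7 CPM, with a log2 fold change of -0.07 ± 0.11. P4ha1, a collagen prolyl hydroxylase subunit, lay between 13.8 and 19.3 CPM (-0.10 ± 0.14 on the log2 scale), and Ankrd37 between 5.59 and 11.4 CPM (0.27 ± 0.21).

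**Figure D4:**
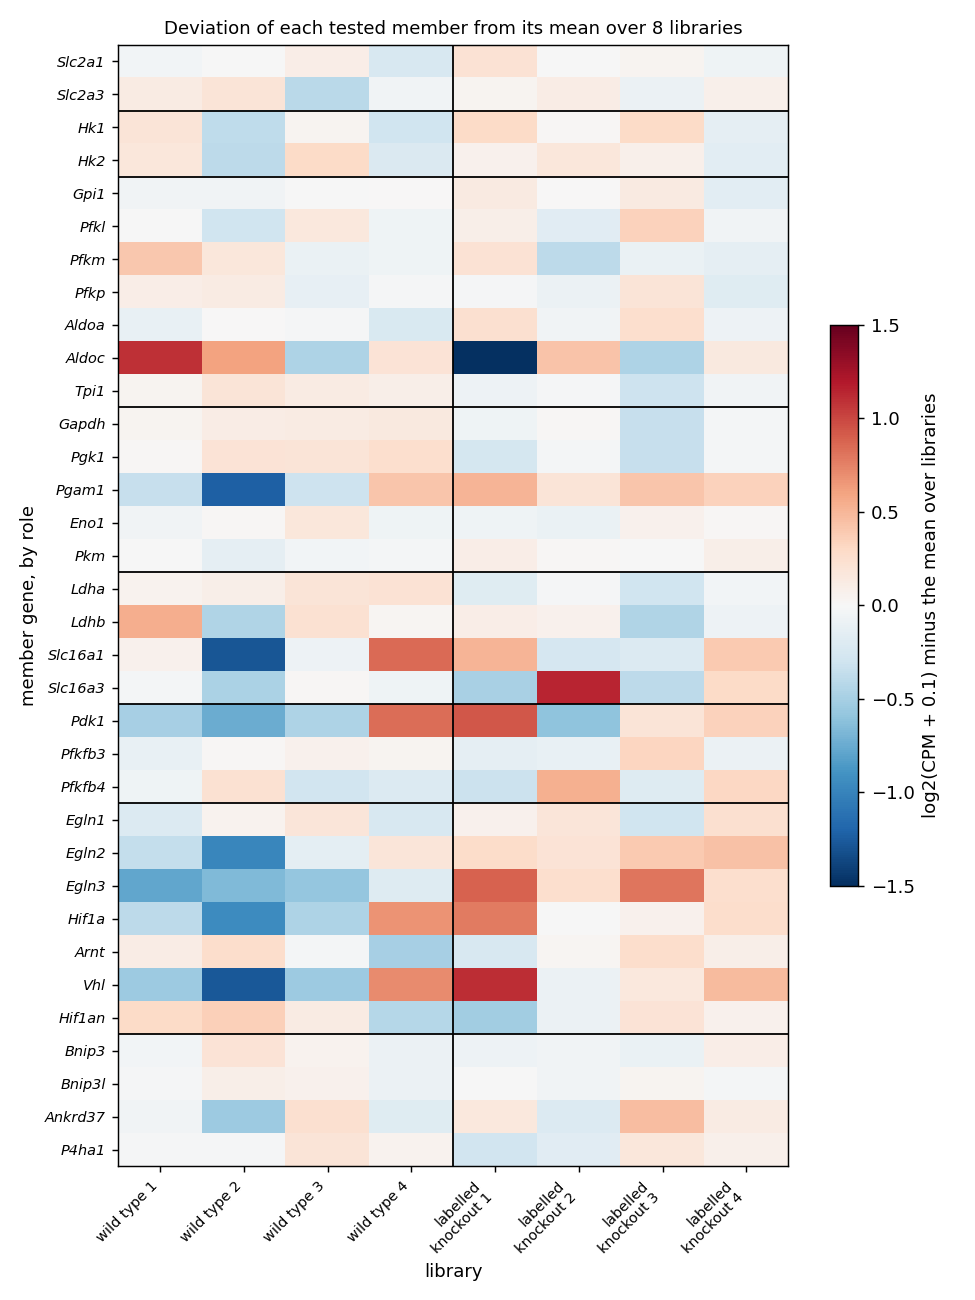
Deviation of each of the 34 tested genes from its mean over 8 libraries, in log2(CPM + 0.1), with libraries in columns and genes in rows by role. Wild type 2 is low and wild type 4 or labelled knockout 1 high for Slc16a1, Pdk1, Hif1a, Vhl and Pgam1, while most enzymes of upper and lower glycolysis are near white throughout, and Aldoc and Slc16a3 rest on few counts.

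The level of the set per exon length was led by Gapdh, at 131 RPKM over 8 libraries, followed by Ldha at 104 and Eno1 at 98.6 RPKM. Ldha and Eno1 did not keep this order in both groups. Ldha was at 113 ± 6.14 RPKM (SD, n = 4) in wild type and 94.1 ± 8.26 RPKM (SD, n = 4) in labelled knockout, and Eno1 at 99.9 ± 7.57 RPKM and 97.3 ± 5.04 RPKM. In labelled knockout the mean of Pgam1, 96.1 RPKM, also lay above that of Ldha, within their spread. Another 7 genes lay between 60.7 and 79.2 RPKM (Pgam1, Aldoa, Pkm, Bnip3l, Pgk1, Tpi1 and Slc16a1), and the order among these did not stand beyond their spread, since Pgam1 alone had SDs of 27.6 RPKM in wild type and 8.67 RPKM in labelled knockout. Under 1 RPKM were 6 genes, Hk2, Aldoc, Eno2, Ldhb, Slc16a3 and Pfkfb4.

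Variation between libraries was unevenly spread over the set. The median coefficient of variation was 15.5% for the tested genes, beside 25.1% for all genes tested. Of the 31 genes with at least 1 CPM on average, 8 differed more than 2-fold between their highest and lowest library (25.8%; 40.3% of all such genes): Pdk1, Slc16a1, Vhl, Egln2, Ankrd37, Egln3, Hif1a and Pgam1. In 7 of the 8 the lowest library was wild type 2 (87.5%; 48.5% of all genes that varied over 2-fold), and in 5 wild type 2 was lowest and wild type 4 or labelled knockout 1 highest (62.5%; 36.7% of the genes that varied over 2-fold), a pattern looked for after the values were seen. Vhl ranged 5.23-fold, Slc16a1 4.36-fold, Pgam1 3.31-fold and Hif1a 3.31-fold. Of the 50 tested genes with at least 1 CPM in 4 lists of neighbouring pathways, 21 varied over 2-fold, and 11 of these (52.4%) were lowest in wild type 2 and highest in wild type 4 or labelled knockout 1, among them Pdk3 at 7.56-fold and Pgls at 6.31-fold.

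**Figure D5:**
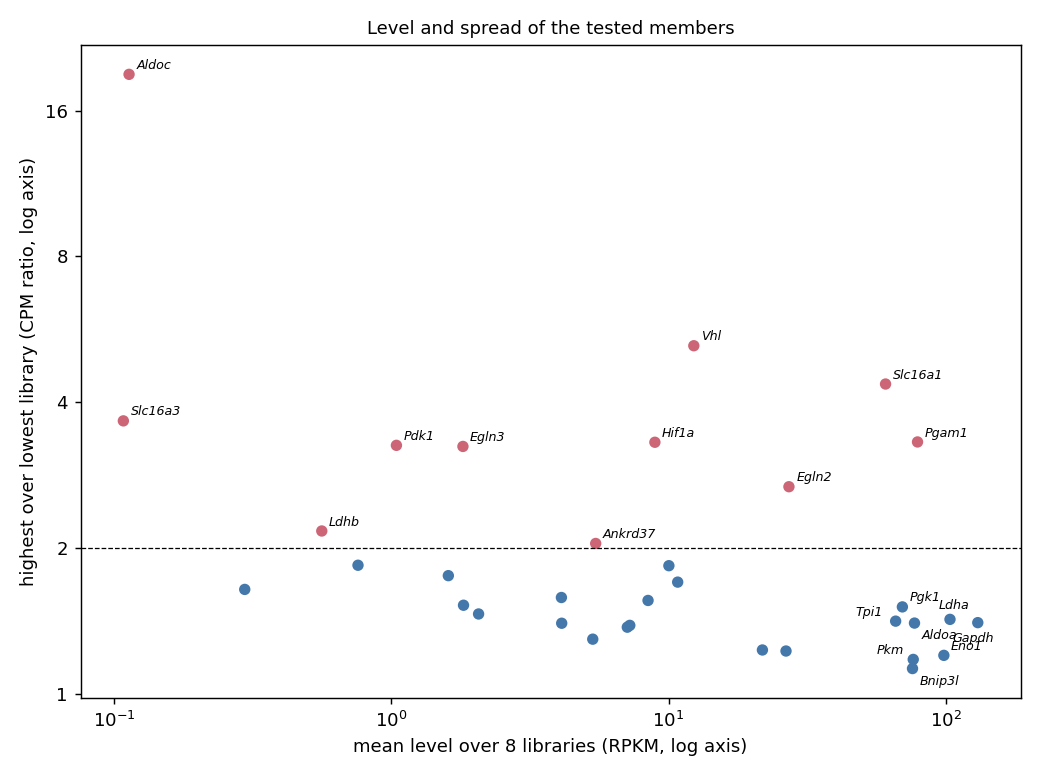
Mean level of each tested gene over 8 libraries (horizontal log axis, RPKM) against the ratio of its highest to its lowest library (vertical log axis, CPM ratio), with genes above a ratio of 2 in red. Of the genes above 50 RPKM, Slc16a1 and Pgam1 exceed 2, and Aldoc, Slc16a3 and Ldhb exceed it at under 1 RPKM.

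Neighbouring pathways were described with 4 further lists. None of their genes passed the adjusted threshold, and their counts at an unadjusted p under 0.05 stand beside 5.53% higher and 7.11% lower among all genes tested. Of 19 other glycolysis genes 11 were tested, and at an unadjusted p under 0.05 none was higher and 1 was lower. This was Bpgm, which makes 2,3-bisphosphoglycerate and is most abundant in red cells, at 38.6 to 42.1 CPM in wild type and 32.2 to 34.2 CPM in labelled knockout (-0.28 ± 0.10). Of 12 genes of pyruvate entry into mitochondria 11 were tested, and 1 was higher and 1 lower. The higher was Pdk2, a pyruvate dehydrogenase kinase like Pdk1, at 10.1 to 37.6 CPM in wild type and 29.5 to 51.9 CPM in labelled knockout (0.95 ± 0.36), and the lower was Dld, the shared dehydrogenase subunit of the complex (-0.24 ± 0.09). All 8 pentose phosphate genes were tested, and none was under 0.05 on either side. Of 28 other hypoxia pathway genes 23 were tested, with fitted fold changes positive for 13 and negative for 10 and a median of 0.17. At an unadjusted p under 0.05 none was higher and 4 were lower. By smallest p these began with Car9, the carbonic anhydrase induced by HIF-1, at 0.592 to 1.29 CPM in wild type and 0.206 to 0.487 CPM in labelled knockout (-1.38 ± 0.41), and Higd1a, a mitochondrial protein of the hypoxia response, at 34.3 to 39.0 CPM and 24.6 to 33.3 CPM (-0.37 ± 0.12). The remaining 2 were Elob and Rbx1, subunits of the Vhl ubiquitin ligase, at -0.39 ± 0.14 and -0.30 ± 0.12.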

How the data were processed

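RNA-seq libraries of mouse pro-B cells (4 labelled CD25 knockout, 4 wild type, replicate numbers from the titles) were made from Trizol RNA with a SMARTER kit, per the labels' protocols. The authors deposited 1 table of raw counts of fragments per gene, made with featureCounts 2.0.1 in paired mode on GENCODE M25 with multi-mapping fragments counted at every alignment, per the file headers. No strand setting is recorded there, so overlapping and antisense genes cannot be told apart. Exon length, the other column used, was deposited in the same table per the file headers. STAR 2.7.7a, GATK 4.1.9.0 and mm10 are named in the submitters' processing notes, where GATK has no stated role. The table had 0 columns of other samples. Members and lists were chosen with earlier results of these data known.

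GENCODE M21, on the build GRCm38, gave symbols, positions and the GC content of transcripts, and named 55227 of 55487 identifiers. Of 2 rows named Aldoa, the one at the RefSeq gene start was used. Genes were filtered with filterByExpr, scaled by TMM and tested with edgeR 4.0.16 (robust quasi-likelihood, genotype only, threshold 0.05) in R 4.3.3, and the script was first tested on simulated data. The SE is the size of the log2 fold change over the square root of F. CPM and RPKM use TMM-scaled library sizes. The lowest chi-square per degree of freedom within a group was 25.2 over 12 pairs, so no library was a copy of another. Values in every library are given for genes with an unadjusted p under 0.05 or groups that did not overlap, for the most abundant member of each isozyme family, and for Hif1a, Arnt, Vhl and Egln1 to Egln3. Pseudogenes were matched with blastn 2.17.0. Marker sums of the lists named only here had overlapping groups. They ran from 120 to 565 CPM (neutrophil), 40.6 to 227 CPM (monocyte and macrophage) and 2.77 to 7.82 CPM (T cell). The others ran from 0.701 to 11.2 CPM (megakaryocyte and platelet, 1 of 6 genes at 0 in all libraries) and 487 to 620.2 CPM (plasma cell). Alternatives were other scalings, filters and tests (limma 3.58.1 voom, DESeq2 1.42.0), leaving out each library, the replicate number as a block, a Y-linked covariate, removal of the GC trend, and leaving out haemoglobin, mitochondrial, sex-linked and receptor segment genes. Leaving out labelled knockout 1 and 3 together, DESeq2 on the genes edgeR tested and the wider motif were chosen after seeing the data.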

Additional observations from a re-analysis of the deposited data

Results flagged for a closer look

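In each group of 4 libraries, a gene is listed here where the highest or lowest library stood far from the other three relative to the group's range. Chance alone does this in about 1 in 20 groups, and 3 of the 70 groups (35 genes, both genotypes) did. Pdk1, the pyruvate dehydrogenase kinase, was at 13.2 CPM in wild type 4 and at 4.36 to 5.33 CPM in the other wild type libraries. Pfkfb3 was at 67.0 CPM in labelled knockout 3 and at 48.8 to 50.4 CPM in the other labelled knockout libraries. Eno2, the neuronal enolase, was at 0.186 CPM in labelled knockout 1, which is 9 counts, and at 0 to 0.0200 CPM in the other labelled knockout libraries.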

How the results depend on the processing

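Every alternative with a call left out wild type 4, except DESeq2 on the genes edgeR tested. Leaving out 1 library at a time gave 0 to 363 genes called over the whole table and 0 to 1 of the 34 genes, with the upper values without wild type 4, where Egln3 was called. The genes higher at an unadjusted p under 0.05 then numbered 2 to 6, and those lower 2 to 3. With the Y-linked covariate and wild type 4 left out, 3112 genes were called over the table, 11.9% of those tested on the higher and 4.04% on the lower side, and 7 of the 34 were: Pdk1, Vhl, Egln2, Egln3, Hif1a and Pgam1 higher and Pgk1 lower, with 7 higher at an unadjusted p under 0.05. With the GC trend removed and wild type 4 left out, 1271 genes were called (6.06% higher, 0.456% lower), among them Vhl, Egln3, Hif1a and Pgam1, and 5 of the set were higher at an unadjusted p under 0.05. The Y-linked covariate with all 8 libraries and limma-voom with quality weights each gave 5 higher at an unadjusted p under 0.05 and no call. DESeq2 on the genes edgeR tested called 4 genes, Egln3 among them (1 of the set), and DESeq2 with its own filter called 0 (smallest adjusted p 0.101). Without labelled knockout 1 and 3, a pair chosen after the values were seen, 0 of the set were lower at an unadjusted p under 0.05. The cause of these changes was not tested. Upper quartile scaling changed the split of all genes at an unadjusted p under 0.05 from 1045 higher and 1343 lower to 754 and 1923.

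Over 23 alternatives, 18 of the 34 genes never changed sign. Upper quartile scaling reversed Slc2a1 (-0.0061), Slc2a3 (-0.047), Hk2 (-0.021), Gpi1 (-0.030), Pfkfb3 (-0.077) and Arnt (-0.051). Voom reversed Hk2 (-0.076), Pfkl (-0.017) and Pfkfb3 (-0.047), and no count filter reversed Eno1 (0.0017) and Bnip3l (0.015). Removing the GC trend reversed Pfkl (-0.057), Pkm (-0.10), Egln1 (-0.020) and Bnip3l (0.038). Removing it without wild type 4 reversed Slc2a1 (-0.043), Hk1 (-0.019), Hk2 (-0.016), Pfkl (-0.12), Aldoa (-0.089), Pkm (-0.16), Egln1 (-0.12), Arnt (-0.030) and Bnip3l (0.031). The Y-linked covariate without wild type 4 reversed Arnt (-0.092). Without labelled knockout 1 and 3, Slc2a1 (-0.016), Gpi1 (-0.066), Pfkl (-0.084), Aldoa (-0.0020) and Pfkfb3 (-0.12) were reversed. Leaving out 1 library at a time reversed Slc2a3 (-0.057 to 0.16), Hk2 (-0.016 to 0.19), Pfkp (-0.12 to 0.025), Eno1 (-0.068 to 0.032), Slc16a1 (-0.16 to 0.47), Pfkfb3 (-0.11 to 0.097), Arnt (-0.078 to 0.20), Bnip3 (-0.11 to 0.027) and Bnip3l (-0.056 to 0.034). Without division by exon length the shares became 65.8% for Slc2a1, 95.2% for Hk1, 42.2% for Pfkl (below Pfkp at 53.7%), 99.7% for Ldha and 93.5% for Pfkfb3. With ACGTG or GCGTG as the core, 28 of 33 genes (84.8%) had a match, beside 46.7% of all genes with a promoter window outside chromosome 18.

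The labels do not say whether the replicate numbers pair the samples. Deviations of same-numbered libraries correlated at 0.098, 0.32, 0.20 and -0.11 over 18884 genes. In each group 2 of 4 libraries correlated best with their own number, and pairing was not tested. With the replicate block 0 genes were called, 1695 were higher and 1362 lower at an unadjusted p under 0.05 in place of 1045 and 1343, and 4 of the set were higher and 2 lower at that level.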
